A study of Homo sapiens with 15 samples.

Results

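The replication-dependent histone genes code for the core histones H2A, H2B, H3 and H4 and the linker histone H1. They were taken as all gene rows whose GENCODE release 29 name starts with HIST1H, HIST2H, HIST3H or HIST4H, without pseudogenes and with at least 150 counts summed over the 15 libraries. Of 57500 gene rows in each library, 70 carried such a name and 43 reached the minimum. The 43 members were 4 H1, 10 H2A, 14 H2B, 6 H3 and 9 H4 genes. Of these, 35 lie in the HIST1 cluster on chromosome 6, 6 in HIST2 and 2 in HIST3, both on chromosome 1, and 0 in HIST4. Just inside the minimum were H4C14 (162 counts) and H2AC21 (176 counts), and just outside were H2AC7 (144 counts), H2AC4 (123 counts) and H4C11 (123 counts). Of the 27 genes left out, 4 had no count in any library. Among these, H3C4 and H2AC15 lie wholly within the models of ENSG00000282988 and H2BC15. How reads in shared stretches were counted is not given, so a count of 0 there need not mean that the gene was silent.

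Expression was measured by RNA sequencing in K562 cells, an established human line from chronic myeloid leukaemia, at 1 h. JQ1 is an inhibitor of BET bromodomain proteins, which bind acetylated histones, and JQ1-FCPF shares its suffix with the transfected protein, Cas9FCPF. The 5 groups of 3 libraries were a control and 4 groups of cells transfected with Cas9FCPF, which received either JQ1 or JQ1-FCPF at 1 µM and were transfected either with or without sgRNA. The labels call the control wild type and untreated, the design text calls it DMSO, and neither states that control cells were transfected. Any difference from the control thus spans transfection, Cas9FCPF and compound, and their parts cannot be told apart. What the sgRNA targets is not given in the labels, the title speaks of dCas9 where the labels have Cas9, and whether replicates were separate cultures is not stated, so p-values measure the spread between these libraries, which may be technical.

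Replication-dependent histone messages are made mainly in S phase, when new DNA has to be packed into nucleosomes. Most of these messages end in a conserved stem-loop bound by SLBP in place of a poly(A) tail, and they are cut just after it with the help of the U7 snRNP. Many of the genes also have a poly(A) signal further downstream, and polyadenylated forms that run past the stem-loop are known from non-dividing and differentiated cells. H2A and H2B genes often stand head to head and share a promoter, and the factor NPAT sits at the histone loci. The library kit is not given in the sources used here, so whether messages without a poly(A) tail were captured is unknown.

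The stem-loops of 6 members are shown because the changes are later set against how far each gene model runs past the stop codon. The stem-loop lies after that codon, so the bases that follow it are fewer. A 16-base stem-loop was found in the GENCODE 29 models of 23 members, and the other 20 models held none, 17 of them because they ended at the stop codon. In each line the stem-loop is in capitals, its first 6 and last 6 bases are the arms of the stem, and 5 bases on each side are in lower case.
H2BC21: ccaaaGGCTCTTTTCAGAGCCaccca
H2BC7: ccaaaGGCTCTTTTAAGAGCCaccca
H2AC11: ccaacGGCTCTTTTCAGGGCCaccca
H3C6: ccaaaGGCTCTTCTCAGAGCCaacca
H4C9: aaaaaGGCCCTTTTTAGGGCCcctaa
H4C2: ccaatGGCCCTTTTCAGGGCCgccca
In H2BC21 the model ran on for 1729 bases after the stem-loop, in H3C6 for 1862, in H2AC11 for 1761 and in H2BC7 for 732. In H4C9 and H4C2 it ran on for 212 and 86 bases.

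Promoters are shown for H2BC21, the member with the smallest p in the main comparison, and for H1-2, the member with the most counts, which did not pass it. Both are the 250 bases before the RefSeq transcript start (GRCh38.p14), minus strand, written along the gene, with the motif CCAAT, the TATA box letters TATAAA and the octamer ATTTGCAT in capitals on either strand. The H2BC21 sequence is chr1:149886683-149886932 and that of H1-2 is chr6:26056471-26056720.
H2BC21: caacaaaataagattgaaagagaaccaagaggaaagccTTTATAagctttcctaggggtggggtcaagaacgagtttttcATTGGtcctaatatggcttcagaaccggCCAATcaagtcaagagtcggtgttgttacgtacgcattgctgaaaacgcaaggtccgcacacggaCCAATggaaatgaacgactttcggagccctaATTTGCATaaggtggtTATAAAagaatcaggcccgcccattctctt
H1-2: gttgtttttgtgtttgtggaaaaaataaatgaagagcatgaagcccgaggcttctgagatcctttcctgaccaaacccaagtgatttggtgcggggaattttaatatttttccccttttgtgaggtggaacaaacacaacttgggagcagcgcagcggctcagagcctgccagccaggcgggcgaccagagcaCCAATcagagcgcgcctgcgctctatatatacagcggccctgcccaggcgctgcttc
RefSeq promoters, each from 250 bases before to 50 after the start, were matched for 39 of the 43 members and compared with 34796 distinct promoters. The octamer ATTTGCAT, a site for POU2F1, was present on either strand in 17 members (43.6%) against 1.8% of all promoters. Of these 17, 10 were H2B and 7 were H2A genes, and no H1, H3 or H4 promoter held it. The windows of head-to-head pairs, such as H2BC21 and H2AC20, overlap for most of their length, so 1 octamer can be counted for both genes. The 17 members thus hold fewer than 17 separate stretches, and the shares of TATAAA and CCAAT below count shared stretches in the same way. TATAAA stood in 66.7% of the matched members against 11.6% of all, and CCAAT in 84.6% against 34.6%. CACGTG was in 0 members and in 7.2% of all promoters. None of the 4 motifs contains another, and a match describes letters, not binding.

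Totals ran from 12625669 to 17544518 counts per library, and the members held between 0.14% and 0.28% of them. On the first principal component of all genes, JQ1-FCPF with sgRNA replicate 2 lay at 32.2, whereas replicates 1 and 3 of that group lay at -16.7 and -14.8. The JQ1 libraries lay between 16.8 and 24.6, and those of the control and of JQ1-FCPF without sgRNA between -24.7 and -18.4. Replicate 2 was thus on the side of the JQ1 libraries. In JQ1 with sgRNA replicate 1, mitochondrially encoded genes took 7.38% of counts, the highest of the 15 libraries, the lowest being 2.28%. These 2 libraries are called set apart. The fetal and embryonic globin genes HBG2 (444 to 851 CPM) and HBE1 (254 to 419 CPM), which mark K562 cells, were expressed in all libraries. Of 8 markers of other cells, whose summed level was 141 to 176 CPM in JQ1-FCPF without sgRNA and 162 to 203 CPM with sgRNA, EPCAM (64.0 to 81.9 CPM) and PTPRC (69.8 to 118 CPM) made up most, and the B cell gene MS4A1 was at 0 in 14 libraries. COL1A1, a collagen gene, was higher in JQ1-FCPF with sgRNA (4.86 ± 1.11 CPM, SD, n = 3) than without (1.96 ± 0.0479 CPM), and its part in the histone results was not tested.

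Levels (CPM) are counts scaled to library size by TMM. H1-2 held 33.4% of all member counts, H2BC12 21.02% and H4C9 9.70%. Per kilobase of gene model and averaged over the 15 libraries, H2BC12 had the highest level (962 CPM per kilobase), followed by H1-2 (912), H4C9 (131), H2AC25 (102) and H2AC6 (51.9). The most abundant H3 gene by this scale was H3C10 at 42.5 CPM per kilobase. The lowest member was H4C14 at 0.391 CPM per kilobase. H2BC21, H2BC7 and H2AC11 stood at 20.9, 8.15 and 11.3 CPM per kilobase. Models that end at the stop codon are shorter than those that run on, so levels per length compare the annotated models and not the transcripts made.

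JQ1-FCPF with sgRNA against JQ1-FCPF without sgRNA asks what the sgRNA adds to the conjugate. Of the 43 members, 27 were higher with sgRNA and 0 lower at an adjusted p under 0.05 (edgeR quasi-likelihood test, Benjamini-Hochberg over 15517 genes), where 2.06% of all genes were called higher and 4.2% lower. The median log2 fold change of the members was 0.81 against 0.01 over all genes tested. The minimum of 150 counts includes the libraries compared, and H3C6, H4C4, H4C14, H3C7 and H2AC21 would miss it without those of JQ1-FCPF with sgRNA. For H3C6, H4C4 and H4C14, which are among the 27, the other 12 libraries sum to 136, 106 and 81 counts, so these genes became members only through the group where they are high. Of the 38 members that reach the minimum without that group, 24 were called higher. In bulk RNA, more cells making a message and more message per cell cannot be told apart. In 26 members all 3 libraries with sgRNA lay above all 3 without, which held for 9.98% of all genes. By class, 13 of 14 H2B, 4 of 6 H3, 6 of 9 H4, 4 of 10 H2A and 0 of 4 H1 genes were called higher. Class medians on the log2 scale were 1.38 for H3, 1.04 for H2B, 0.79 for H4, 0.65 for H2A and 0.06 for H1, and differences between classes were not tested. By cluster, 23 of 35 HIST1, 3 of 6 HIST2 and 1 of 2 HIST3 members were called higher.

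**Figure D1:**
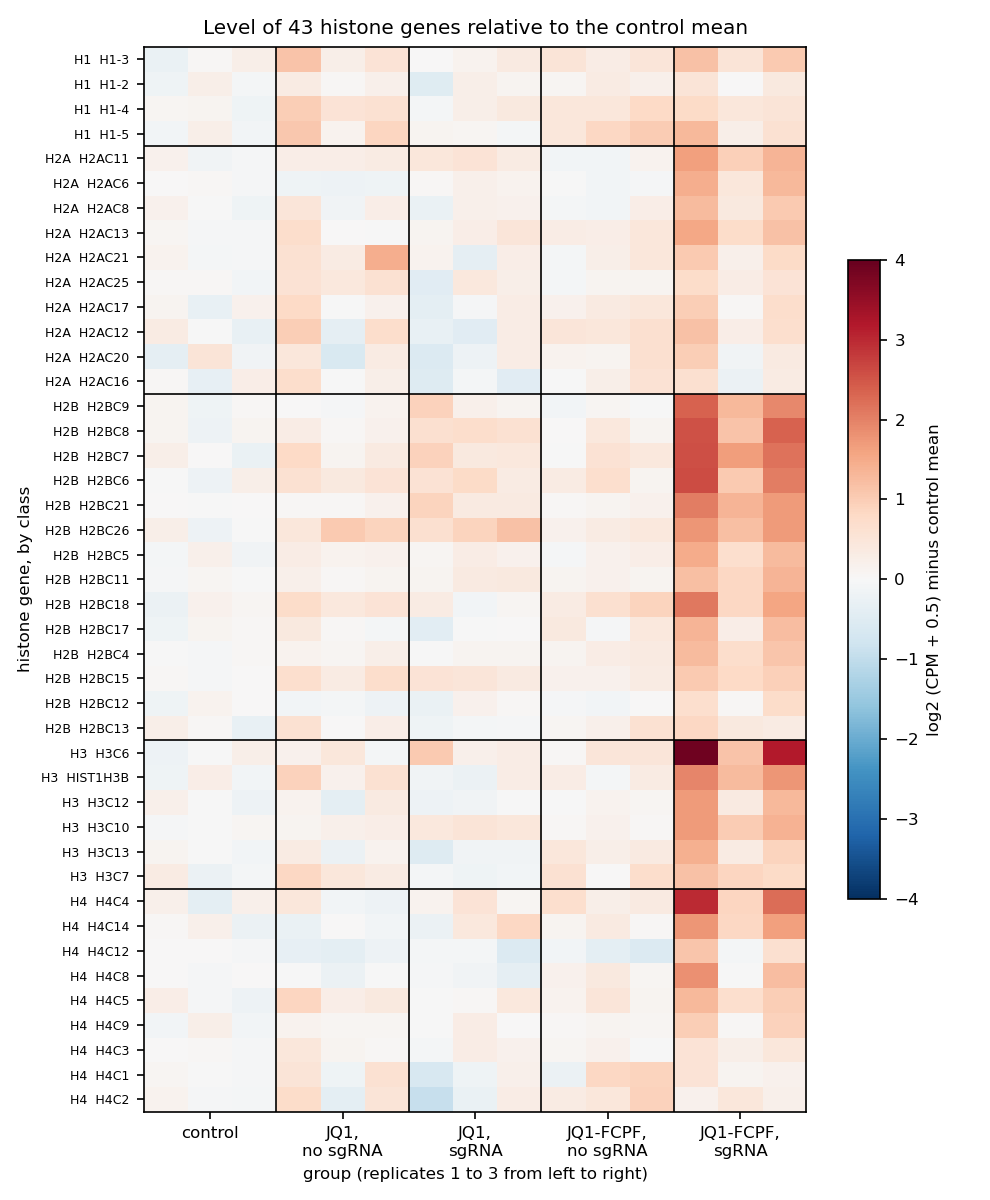
Level of each of the 43 members in each library as log2(CPM + 0.5) minus the mean of the 3 control libraries, with genes in rows by class and libraries in columns by group. The JQ1-FCPF libraries with sgRNA hold the deepest colours, replicate 2 in the middle being paler than replicates 1 and 3, while the H1 rows are close in colour in both JQ1-FCPF groups.

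H2BC21 (ENSG00000184678, HIST2H2BE; whole gene at chr1:149884459-149886652, GRCh38) codes for a core H2B and is the partner of H2AC20. It stood at 29.5, 31.1 and 32.5 CPM in JQ1-FCPF without sgRNA and at 121, 74.2 and 94.3 CPM with sgRNA. The groups did not overlap, and the 3 libraries with sgRNA were above the other 12 as well. The log2 fold change was 1.64 ± 0.15 SE, or 3.11-fold (edgeR adjusted p = 3.91e-07).

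H2BC7 (ENSG00000277224, HIST1H2BF; chr6:26199520-26200715) is a core H2B gene of the HIST1 cluster. Its levels were 4.68, 7.38 and 6.61 CPM without sgRNA and 31.0, 16.4 and 23.3 CPM with sgRNA. All 3 libraries with sgRNA were again the highest of the 15. The difference was 3.80-fold (log2 1.93 ± 0.23 SE, edgeR adjusted p = 1.3e-05). H2BC8 (ENSG00000273802; chr6:26215159-26216692) read 16.9, 22.7 and 18.0 CPM without and 100.4, 37.1 and 88.2 CPM with sgRNA, so that replicate 2 lay below the other 2 but above every library without sgRNA. Its rise was 3.93-fold (edgeR adjusted p = 8.44e-06).

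Among the other H2B genes, H2BC9 rose 4.04-fold, H2BC6 3.72-fold and H2BC26, the H2B gene of the HIST3 cluster, 2.64-fold. Of the H2BC6 model, 28.2% is overlapped on the opposite strand by ENSG00000283064, which also rose, so reads of these genes cannot be told apart without strand. H2BC12, the most abundant H2B gene, rose 1.47-fold, from 336, 321 and 347 CPM to 544, 356 and 576 CPM (edgeR adjusted p = 0.0231). Of its 50-base windows, 74.1% occur in another gene, mainly H2BC12L, and its value is uncertain for that reason. H2BC13 was the H2B gene not called, at log2 0.27 with a 95% interval of -0.20 to 0.74.

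**Figure D2:**
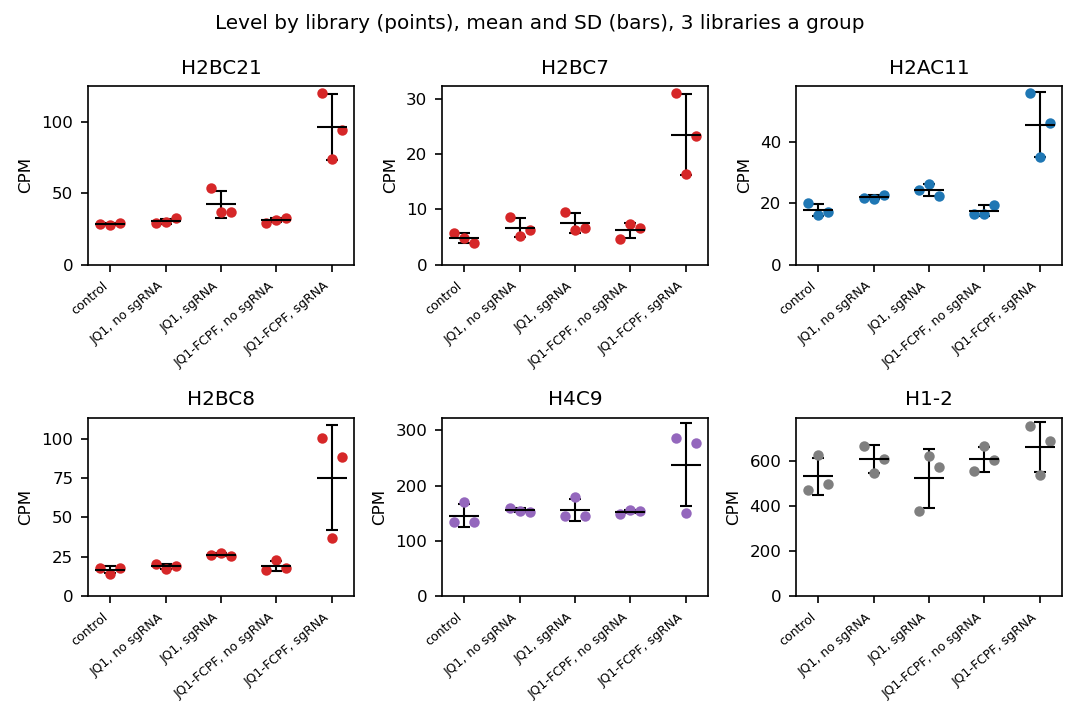
CPM by library (points), with the mean and SD of 3 libraries a group (bars), for 6 members. H2BC21, H2BC7, H2AC11 and H2BC8 are higher in all 3 JQ1-FCPF libraries with sgRNA than in the 3 without, H4C9 is higher in replicates 1 and 3 and at the level of the group without sgRNA in replicate 2, and the H1-2 groups overlap.

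The H3 genes had the largest median. H3C6 (ENSG00000274750; chr6:26224199-26227473) codes for a canonical H3 and had 9, 14 and 12 counts in the libraries without sgRNA and 188, 22 and 139 counts in those with sgRNA. On the CPM scale this was 0.554, 0.923 and 0.923 against 14.4, 1.73 and 8.54. The groups did not overlap, but the library at 22 counts lay far below its 2 partners. The fitted change was 10.3-fold, with a 95% interval of the log2 value from 2.30 to 4.44 (edgeR adjusted p = 0.000273). H3C10, the most abundant H3 gene, read 37.1, 40.9 and 37.6 CPM without and 118.8, 73.3 and 96.0 CPM with sgRNA, a 2.49-fold rise (edgeR adjusted p = 7.66e-07). HIST1H3B rose 3.05-fold and H3C12 2.71-fold, whereas H3C13 (log2 0.72) and H3C7 (log2 0.66) did not pass. H3C12 shares 44.6% of its model with H2AC17 on the same strand.

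Among the H4 genes, H4C4 rose 5.18-fold, from 16, 9 and 9 counts to 90, 15 and 63 counts. H4C14 (3.99-fold) and H4C12 (2.56-fold) also passed, but 97.5% and 100% of their 50-base windows occur in another gene, H4C15 and H4C11. H4C9 (ENSG00000276180; chr6:27138588-27139881), the most abundant H4 gene, read 149, 156 and 153 CPM without sgRNA and 287, 151 and 277 CPM with it. Replicate 2 lay inside the range of the group without sgRNA, so the groups overlapped, although the gene passed at 1.56-fold (edgeR adjusted p = 0.0214). Over 13 alternatives its adjusted p ran from 8.46e-08 to 0.105, and the call was lost in 6 of them. The call of H4C8 was also lost in 6 of 13, with an edgeR or DESeq2 adjusted p of up to 0.156. H4C8 read 17.2, 20.2 and 16.1 CPM against 55.2, 14.95 and 36.7 CPM with replicate 2 below the group without sgRNA, and passed at 1.996-fold. H4C1 and H4C2 had negative log2 fold changes of -0.33 and -0.39, with 95% intervals of -1.03 to 0.36 and -1.18 to 0.40.

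Of the H2A genes, H2AC11 (ENSG00000196787, HIST1H2AG; chr6:27133042-27135291) read 16.6, 16.4 and 19.5 CPM without sgRNA and 56.0, 34.9 and 46.0 CPM with sgRNA. These 3 libraries were the highest of all 15, and the rise was 2.62-fold (log2 1.39 ± 0.14 SE, edgeR adjusted p = 1.55e-06). H2AC6 rose 2.28-fold from 70.4, 65.3 and 68.1 CPM to 195, 96.0 and 174 CPM, H2AC8 rose 1.92-fold and H2AC13 1.89-fold. H2AC25, the most abundant H2A gene, had groups that did not overlap, 71.5, 82.5 and 82.5 CPM against 128, 92.6 and 111 CPM, but did not pass (1.40-fold, edgeR adjusted p = 0.0648).

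None of the 4 linker histone genes passed. H1-2 (ENSG00000187837; chr6:26055787-26056428) read 552, 663 and 603 CPM without sgRNA and 754, 537 and 689 CPM with it, so the groups overlapped. Its log2 fold change was 0.12 with a 95% interval of -0.21 to 0.46. H1-4 and H1-5 were at -0.00 and -0.00, with intervals of -0.32 to 0.32 and -0.67 to 0.67, and H1-3 was at 0.57 (0.03 to 1.11). Summed over the class, H1 counts made up 628 ± 55.3 CPM without and 682 ± 115 CPM with sgRNA (SD, n = 3). The same sums for H2B were 539 ± 20.1 and 991 ± 246 CPM, and for H3 47.7 ± 1.16 and 125 ± 35.4 CPM.

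The 3 JQ1-FCPF libraries with sgRNA did not carry the rise to the same extent. Replicate 1 was the highest of the 3 for 40 of 43 members and replicate 2 the lowest for 40. Against the mean of the group without sgRNA, the median log2 ratio over the members was 1.07 in replicate 1, 0.27 in replicate 2 and 0.85 in replicate 3, while that of all genes lay between -0.00 and 0.01. Members above all 3 libraries without sgRNA numbered 40, 26 and 36 in replicates 1, 2 and 3, where 29.1%, 35.5% and 28.5% of all genes did the same. Without both libraries set apart, 30 members were called higher, where 10.2% of all genes were called in either direction. Without replicate 1 of JQ1-FCPF with sgRNA 18 were, the lowest count when 1 library was left out, and 730 of 15847 genes were called in all. Of the 27 members called, 18 passed in every alternative run, and H2BC12, H2BC17, H2BC18, H2AC13, H3C12, H4C5, H4C8, H4C9 and H4C12 did not in at least 1.

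**Figure D3:**
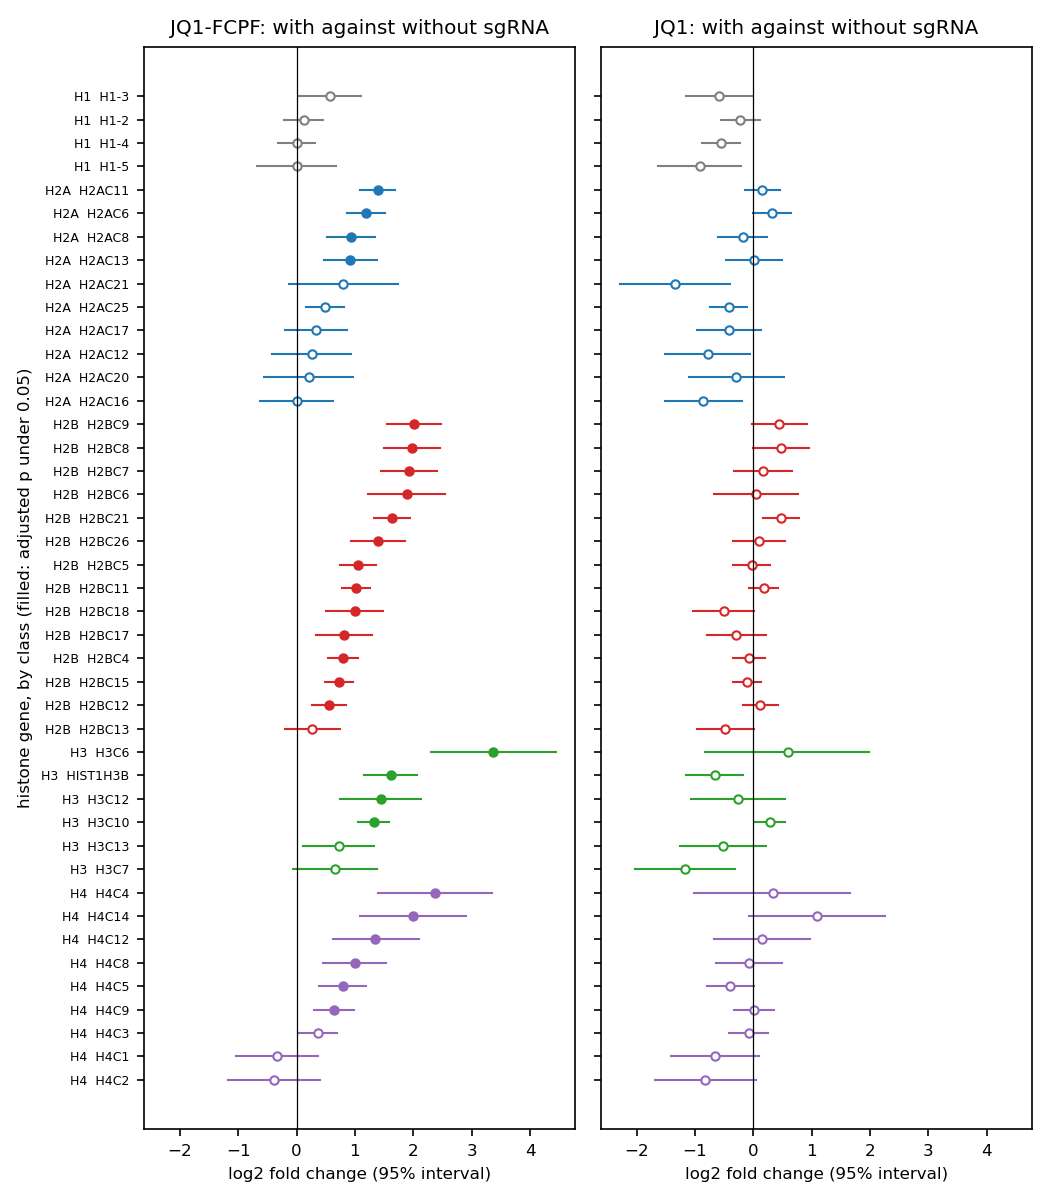
Log2 fold change with its 95% interval for each member, with against without sgRNA, under JQ1-FCPF (left) and JQ1 (right), with colours for classes and filled points for an adjusted p under 0.05. On the left 27 points are filled, 13 of them H2B genes and none H1 genes, and on the right none is filled.

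Calls are set here beside the annotated 3′ end of each gene. Of 20 members whose model runs over 200 bases past the stop codon, 19 were higher, with a median log2 fold change of 1.25, the exception being H2AC25. Of the 23 with 200 bases or fewer, 8 were higher, with a median of 0.56. Over all genes tested 2.06% were called higher, and the median was 0.01. Among the members called, H3C6 and H4C14 in the first set and H4C4 in the second reached the count minimum only through JQ1-FCPF with sgRNA. The limit of 200 bases was chosen after the values had been seen, so this is a description with no test. The first set also had more reads, with a median level of 21.7 CPM against 2.70 CPM, and the part of read depth in the counts of calls was not tested. Most H2B genes are in the first set and all H1 genes in the second, so this split overlaps that by class. The parts of class and model were not tested. The abundant genes H1-2 and H2BC12, whose models end at the stop codon, had log2 fold changes of 0.12 and 0.56. HIST1H3B, whose model also ends there, had 1.61. H4C4, with a model of the same kind, had 2.37, but has 106 counts outside JQ1-FCPF with sgRNA, under the count minimum. Under JQ1 the medians of the same sets, with against without sgRNA, were 0.13 and -0.48, with no member called in either.

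In 8 head-to-head pairs both the H2A and the H2B gene were members, their models 218 to 330 bases apart. Under JQ1-FCPF both genes were higher with sgRNA in 3 pairs, H2AC6 and H2BC4, H2AC8 and H2BC8, and H2AC11 and H2BC11. In the other 5 pairs 1 gene passed. H2BC21 rose 3.11-fold while H2AC20, starting 322 bases away from the model of H2BC21 across the promoter printed above, had a log2 fold change of 0.21 with an interval of -0.55 to 0.96. H2AC20 had few reads, 2.22, 2.11 and 3.31 CPM without and 4.37, 1.73 and 2.64 CPM with sgRNA. Its model ends at the stop codon, whereas that of H2BC21 runs on for 1801 bases. H2BC26 (log2 1.40) was called and H2AC25 (0.49) was not, and their intervals, 0.94 to 1.85 and 0.17 to 0.81, did not overlap. In H2AC13 and H2BC13 the H2A gene was the 1 that passed (0.92 against 0.27). Differences within pairs were not tested.

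Copies of a histone gene can share reads. In 30 members under 10% of 50-base windows occur in another gene. Of these, 18 were higher under JQ1-FCPF with against without sgRNA, where 2.06% of all genes were. The median log2 fold change of the 30 was 0.87, against 0.01 over all genes. Among the 18 are H3C6 and H4C4, which reached the count minimum only through JQ1-FCPF with sgRNA. In 6 members over 50% of windows occur in another gene, namely H2BC12, H2AC13, H4C12, H2AC17, H3C13 and H4C14.

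With JQ1 in place of the conjugate, the sgRNA moved no member past the test. Of the 43, 0 were higher and 0 lower, where 0% of all genes were called higher and 0.0129% lower (edgeR), and DESeq2 also called 0. At an unadjusted p under 0.05 there were 12 members, 3 of them higher. Of all 15517 genes, 1264 had such a p, 656 of them higher. The share was thus larger among the members, most of them lower, and this difference was not tested. The median was -0.11. In 4 members, H2BC21, H2BC8, H2AC6 and H3C10, all 3 libraries with sgRNA lay above all 3 without, which held for 6.94% of all genes. In 7 members, H1-4, H1-5, H2AC16, H2AC21, H2BC13, H2BC18 and H3C7, all 3 lay below, which held for 8.51% of all genes. H2BC21 read 29.4, 29.6 and 32.5 CPM without and 53.4, 37.1 and 36.9 CPM with sgRNA, the highest being the library rich in mitochondrial counts. Its log2 fold change was 0.48 (95% interval 0.17 to 0.79, edgeR adjusted p = 0.502). H2BC8 read 20.5, 17.2 and 18.9 CPM without and 26.4, 27.2 and 25.5 CPM with sgRNA, at log2 0.48 (0.00 to 0.96).

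Whether the sgRNA effect differed between the compounds was tested as an interaction. The sgRNA effect under JQ1-FCPF was higher than under JQ1 in 14 members and lower in 0, where 0.193% of all genes were called higher and 0.593% lower (edgeR). All 43 values were positive, with a median of 1.07 on the log2 scale against -0.00 over all genes. The called members were 10 H2B, 2 H3, 1 H2A and 1 H4 gene. For H2BC21 the difference was 1.16 ± 0.21 SE (edgeR adjusted p = 0.0072), for H2BC7 1.76 ± 0.33 (adjusted p = 0.0114) and for H2AC11 1.23 ± 0.20 (adjusted p = 0.00313). For HIST1H3B it was 2.27 ± 0.32 (adjusted p = 0.00134), where JQ1-FCPF gave a log2 fold change of 1.61 and the JQ1 libraries read 7.78, 4.40 and 6.21 CPM without and 3.49, 3.21 and 4.90 CPM with sgRNA. H3C6 had the largest value, 2.78, but did not pass (95% interval 0.91 to 4.65, adjusted p = 0.164). The count moved with the libraries used, being 27 without those set apart (3.25% of all genes called in either direction). It was 28 without JQ1-FCPF with sgRNA replicate 2, where 346 of 15890 genes were called. It was 7 without JQ1 without sgRNA replicate 1 or replicate 3, where 68 of 15891 and 61 of 15882 genes were called. Of the 14, 5 passed in every alternative.

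The compounds were compared directly at 1 µM and 1 h, with and without sgRNA. The labels give no structure for JQ1-FCPF beyond its name. With sgRNA, 26 members were higher under JQ1-FCPF than under JQ1 and 0 lower, where 1.18% of all genes were called higher and 1.77% lower (edgeR). The median log2 difference was 0.97, and all 43 values were positive, between 0.31 and 3.04. H2BC21 stood at 42.4 ± 9.48 CPM under JQ1 and 96.4 ± 23.3 CPM under JQ1-FCPF (SD, n = 3), 2.27-fold higher (edgeR adjusted p = 8.2e-05). Of the 26, 2 passed in every alternative run. All 6 H3 genes passed in the main fit, H3C10 at 1.91-fold and H3C6 at 8.20-fold, and 0 of 4 H1 genes did. Over 13 alternatives the call was lost in 5 for H3C7, 2 for H3C13, 2 for H3C12, 1 for H3C6, 1 for H3C10 and 0 for HIST1H3B. Of the H3 genes, H3C6 and H3C7 would miss the count minimum without the libraries of JQ1-FCPF with sgRNA. Of the 38 members that reach it without them, 22 were called higher. When only these 2 groups were fitted, 2 members and 11 genes in all passed. With all groups fitted but without JQ1-FCPF with sgRNA replicate 1, 14 members and 68 of 15847 genes passed.

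Without sgRNA the compounds did not differ past the test for any member. The counts were 0 higher and 0 lower, where 4.11% of all genes were called higher under JQ1-FCPF and 3.69% lower (edgeR). At an unadjusted p under 0.05 there were 5 members of 43, all lower under JQ1-FCPF, H2AC21, H2BC26, H2AC25, H2BC15 and H2AC11. Of all 15517 genes, 3883 had such a p, 1976 of them higher, so the share of members was below that of all genes. DESeq2 called 1 member and 1469 genes in all. The interval of the log2 difference was -0.29 to 0.34 for H2BC21, -0.62 to 0.41 for H2BC7, -0.63 to -0.03 for H2AC11 and -0.34 to 0.33 for H1-2. These p-values were adjusted over all genes within each of the 2 comparisons. Without the libraries set apart 4 members were lower, where 22.6% of all genes were called in either direction.

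Against the control, JQ1-FCPF with sgRNA had 31 members higher and 0 lower, where 2.42% of all genes were called higher and 4.79% lower (edgeR). The median log2 fold change was 1.13, and all 43 values were positive. H2BC21 rose 3.37-fold from 28.7, 28.0 and 29.1 CPM in the control, and H2BC7 4.91-fold from 5.66, 4.86 and 3.92 CPM. All 6 H3 genes were higher here, as were the linker histone genes H1-3 (2.13-fold) and H1-4 (1.52-fold). Over 13 alternatives the call was lost in 4 for H3C13, 4 for H3C7, 2 for H3C12, 3 for H1-3 and 3 for H1-4. Of the 31, 22 passed in all of them, and 27 reach the count minimum without the libraries of this group. Of all members, 37 had their highest group mean in JQ1-FCPF with sgRNA, as did 20.4% of all genes, and in 17 its 3 libraries lay above the other 12, as in 1.07% of all genes.

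JQ1-FCPF without sgRNA had 0 members higher and 0 lower than the control, where 0% of all genes were called higher and 0.00644% lower (edgeR). At an unadjusted p under 0.05 there were 3 members, H1-4, H1-5 and H2BC18, all with positive values, and DESeq2 called 0. Of all 15517 genes, 285 had such a p, 142 of them higher. The median log2 fold change was 0.28 against 0.00 over all genes. For H2BC21 the log2 fold change was 0.11 (95% interval -0.20 to 0.43), for H2BC7 0.37 (-0.16 to 0.90) and for H2AC11 -0.03 (-0.33 to 0.27).

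JQ1 without sgRNA had 5 members higher than the control and 0 lower, where 6.07% of all genes were called higher and 6.23% lower (edgeR). The 5 were H1-4 (1.69-fold), H2BC15 (1.504-fold), H2AC21 (2.67-fold), and the HIST3 pair H2AC25 (1.45-fold) and H2BC26 (1.89-fold). H2AC21 had 53 of its 176 counts in JQ1 without sgRNA and would miss the count minimum without them, and its call was lost in 6 of 13 alternatives. H2AC25 read 79.0, 79.1 and 70.5 CPM in the control and 114, 101 and 115 CPM with JQ1, with no overlap. JQ1 with sgRNA also had 5 higher and 0 lower, where 7.21% of all genes were called higher and 7.04% lower. These were H2BC26 (2.02-fold), H2BC21 (1.48-fold), H2BC15 (1.40-fold), H3C10 (1.39-fold) and H2AC11 (1.37-fold). In each case 5 of 43 is 11.6% of the members, a few genes above the share of all genes. Without the libraries set apart, 11 members were higher with JQ1 without sgRNA and 8 with JQ1 and sgRNA, where 26.9% and 22.8% of all genes were called in either direction. Without control replicate 2 or 3 the counts fell to 2 in both comparisons, as did the first without replicate 3 of JQ1 without sgRNA. Genes called in all also fell, to 1338 and 1141 of 15912 without control replicate 2 and to 430 and 726 of 15817 without control replicate 3. Without replicate 3 of JQ1 without sgRNA the first comparison had 696 of 15882. In each 2 of the 5 members passed in every alternative. The 4 comparisons above share the control libraries.

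Genes that act on histone messages were followed as lists in JQ1-FCPF with against without sgRNA. In this comparison 2.06% of all genes were called higher and 4.2% lower. Of 21 genes for histone transcription and 3′ end processing, 0 were higher and 1 lower, with a median log2 fold change of -0.00. The 1 was CASP8AP2, a partner of NPAT at histone loci, which fell 1.31-fold from 34.8 ± 1.60 to 26.6 ± 2.41 CPM (SD, n = 3; edgeR adjusted p = 0.0432). NPAT had a log2 fold change of -0.36 (adjusted p = 0.081) and ZNF473, a part of the U7-dependent cutting machinery, -0.39 (adjusted p = 0.0554). Of 30 genes of S phase and DNA replication, 0 were higher and 2 lower, the transcription factor genes E2F2 (2.04-fold) and E2F8 (1.80-fold), and the median was -0.04. Of 19 histone chaperone genes, 0 were higher and 1 was lower, DAXX, which deposits H3.3, by 1.40-fold. The lower counts of these lists, 1 or 2 genes each, are near the share of all genes. Of 8 tested replication-independent histone genes, 2 were higher, H1-10 by 1.501-fold and H3-3B, a gene of the H3.3 variant, by 1.30-fold, and the median was 0.12. Of 13 mitochondrially encoded genes 0 passed.

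Other genes lie among the members on chromosome 6. Of 20 tested neighbours in the HIST1 region, 4 were higher and 2 lower in JQ1-FCPF with against without sgRNA, with a median log2 fold change of -0.05. Of all genes, 2.06% were called higher and 4.2% lower. The 4 were ENSG00000283064 (4.70-fold), ENSG00000282988 (3.97-fold), ENSG00000272468 (3.17-fold) and HFE (2.87-fold), an iron regulation gene. BTN2A1, a butyrophilin gene, was 2.04-fold lower and ABT1 1.31-fold lower. ENSG00000282988 at chr6:26195595-26199293, minus strand, starts beside the start of H2BC7, head to head with it. It covers 98.0% of H2AC7 and all of H3C4, which were left out for counts under the minimum, and reads there can be shared. ENSG00000282988 stood at 8.002, 10.5 and 8.85 CPM without and 52.0, 12.7 and 43.5 CPM with sgRNA. Replicates 1 and 3 were again the high ones.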

How the data were processed

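The authors deposited a table of raw read counts per gene for each of 15 libraries, in the layout of feature counts per the file headers. Not given in the sources used here: aligner, genome build, library kit and strand use. Among gene IDs, 56898 were in GENCODE release 29 (GRCh38), 96.3% of them with the same start and end. Counts were fitted in edgeR 4.0.16 (R 4.3.3) with filterByExpr (15517 genes, all 43 members), TMM, 1 mean per group and the quasi-likelihood test over all libraries, and calls were made at a Benjamini-Hochberg adjusted p under 0.05. The biological coefficient of variation was 11.1%. The fit was tested on simulated data.

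Members and lists were chosen with earlier results of these data known. Named members are H2BC21, H2BC7 and H2AC11, the 3 most abundant of each class, up to 3 called per class, direction and comparison by p, those within 20% of the count minimum, and up to 3 genes per list. Further members were named after their values were seen, among them the head-to-head pairs. The title letters did not pair the libraries. Alternatives were DESeq2 1.42.0, other scalings, no filter, fewer groups, the letter as a block, and leaving out libraries. HIST1H3B (H3C2) keeps its older name.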

Additional observations from a re-analysis of the deposited data

Results flagged for a closer look

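For 14 members the sgRNA effect under JQ1-FCPF differed from that under JQ1 by the interaction test (edgeR quasi-likelihood test, adjusted p under 0.05). The difference, JQ1-FCPF minus JQ1 on the log2 scale, was 2.27 for HIST1H3B, 1.76 for H2BC7, 1.57 for H2BC9, 1.5 for H2BC18, 1.49 for H2BC8, 1.30 for H2BC26 and 1.23 for H2AC11. It was 1.18 for H4C5, 1.16 for H2BC21, 1.08 for H2BC5, 1.04 for H3C10, 0.88 for H2BC4, 0.84 for H2BC11 and 0.83 for H2BC15.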

How the results depend on the processing

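Among the alternatives run, no called member changed sign. Counts for JQ1-FCPF with against without sgRNA (27, or 18 to 29 with 1 library left out), for JQ1-FCPF with sgRNA against control (31), and both counts of 0 that rest on the sgRNA under JQ1 or on JQ1-FCPF without sgRNA against control stayed within 1.5 times. Counts of all genes called, in either direction, are given in brackets below. For JQ1 without sgRNA against control (5), the count was 9 with no filter (1965 of 39485 genes) and 11 without the libraries set apart (4234 of 15731 genes). It was 12 of 40 tested members with only the groups compared (4521 of 14405 genes), near the share of all genes. With 1 library left out it was 2 to 5 (2 without control replicate 2 or 3 or JQ1 without sgRNA replicate 3). For JQ1 with sgRNA against control (5) it was 8 without the libraries set apart (3582 of 15731 genes) and 2 to 5 with 1 left out (2 without control replicate 2 or 3). For JQ1-FCPF against JQ1 without sgRNA (0) it was 1 with library totals (1081 of 15517 genes), 1 with DESeq2 (1469 of 15517) and 1 with no filter (1466 of 39485). It was 4 without the libraries set apart (3554 of 15731) and 3 with only the groups compared (2959 of 14398). All these members were lower. For JQ1-FCPF against JQ1 with sgRNA (26) it was 2 with only the groups compared (11 of 14748 genes). With 1 left out it was 14 (68 of 15847 genes) to 38 (2757 of 15890 genes). For the interaction (14) it was 24 with no filter (316 of 39485 genes), 27 without the libraries set apart (511 of 15731 genes) and 7 to 28 with 1 left out. The causes were not tested. With the title letter as a replicate block, the counts were 27, 0, 5, 5, 0, 30, 0, 24 and 11 for the 9 comparisons. Genes called in all were 833, 3, 1739, 1998, 1, 1008, 1122, 380 and 93 of 15517. The order is JQ1-FCPF and JQ1 with against without sgRNA, JQ1 without and with sgRNA against control, JQ1-FCPF without and with sgRNA against control, JQ1-FCPF against JQ1 without and with sgRNA, and interaction. Deviations of same-letter libraries correlated between -0.238 and 0.311 over 30 pairs, 4 of them above 0.1, so the letters were not taken as pairs. Members at a few CPM, such as H3C6 and H4C14, have few reads, and their fold changes have wide intervals.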

Other observations

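The pseudogene rows of the histone loci were not members. H2BC20P (HIST2H2BC, chr1:149844498-149849024) read 15.02, 22.2 and 18.5 CPM in JQ1-FCPF without sgRNA and 61.7, 42.7 and 47.6 CPM with sgRNA, with no overlap, and was 2.73-fold higher (edgeR adjusted p = 0.000208). H4C10P, at 0.739, 0.791 and 0.154 CPM without and 2.53, 0.787 and 1.04 CPM with sgRNA, had a log2 fold change of 1.30 that did not pass (edgeR adjusted p = 0.127).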
